A study of Homo sapiens with 6 samples.

Results

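ZIC1, ZIC2, ZIC4 and ZIC5 are 4 listed genes among 20015 protein-coding genes of the GENCODE v44 annotation (hg38), and each was followed through the reChIP-seq peaks at its promoters. Promoters reached 1500 bp to each side of every annotated transcript start. The 6 libraries come from untreated parental NCI-H661 cells, an established large cell lung carcinoma line. The study states that the line has since been reclassified as SMARCA4-deficient non-small cell lung cancer. Chromatin from 1 line was immunoprecipitated in succession with an H3K4me3 antibody followed by an H2AK119ub antibody (K4-K119), in the reverse order (K119-K4), or with rabbit IgG in both steps (IgG-IgG). Each of these 3 conditions has 2 libraries, which the labels call biological replicates without saying whether the cells were grown apart. The spread between them may therefore be partly technical. The test of antibody order measures that spread, whereas the permutation tests and the SDs over 4 reChIP libraries also take in differences between the orders. K4-K119 replicate 1 stood apart from the other reChIP libraries in how input was scaled, which is described with ZIC1. The lists hold peaks but no expression, so the labelled cell type could not be checked against marker genes, and nothing here says whether a ZIC gene was transcribed.

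ZIC genes encode C2H2 zinc finger transcription factors of the GLI superfamily that are active in the early neural plate, the dorsal neural tube and the neural crest. The 4 genes described here lie as neighbour pairs transcribed away from each other. H3K4me3 is found at the starts of active and poised genes, and H2AK119ub is deposited by Polycomb repressive complex 1. CpG-rich promoters of developmental transcription factors are a familiar place for Polycomb complexes, and a read after both immunoprecipitations comes from a chromatin fragment that both antibodies retained.

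ZIC2, which is mutated in holoprosencephaly, starts at base 99981784 of chromosome 13 on the plus strand. ZIC5, a factor of neural crest and hindbrain development, starts at 99971767 on the minus strand, 10017 bp away. ZIC1, which acts in the cerebellum and neural plate border, starts at 147409365 of chromosome 3 on the plus strand. ZIC4, its partner in the deletions found in Dandy-Walker malformation, starts at 147406543 on the minus strand, 2822 bp away. These are the canonical starts. ZIC5 has 1 annotated start, ZIC1 and ZIC2 have 5 each and ZIC4 has 15, against a median of 5 per gene, and 12.2% of genes have at least as many starts as ZIC4.

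The sequence directly upstream is shown for each gene because CpG content set the ZIC4 start apart from the other three. Each run is the 250 bases before a start in hg38, read 5′ to 3′ on the gene's strand, with the CpG dinucleotides in capitals. The windows are chr13:99981534-99981783 (plus) for ZIC2, chr13:99971910-99972159 (minus) for ZIC5, chr3:147409115-147409364 (plus) for ZIC1 and chr3:147406810-147407059 (minus) for ZIC4. No annotated exon overlaps them. The ZIC5 window lies before the RefSeq start, at 99971909, and the ZIC4 window before the outermost annotated start, at 147406809. Those of ZIC1, ZIC2 and ZIC5 are identical to the RefSeq promoter entries of GRCh38.p14.
ZIC2: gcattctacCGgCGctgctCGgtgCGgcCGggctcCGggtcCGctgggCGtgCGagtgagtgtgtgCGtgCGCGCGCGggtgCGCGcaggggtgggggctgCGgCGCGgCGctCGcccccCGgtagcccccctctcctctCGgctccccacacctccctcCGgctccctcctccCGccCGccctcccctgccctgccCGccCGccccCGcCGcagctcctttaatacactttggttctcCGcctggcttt
ZIC5: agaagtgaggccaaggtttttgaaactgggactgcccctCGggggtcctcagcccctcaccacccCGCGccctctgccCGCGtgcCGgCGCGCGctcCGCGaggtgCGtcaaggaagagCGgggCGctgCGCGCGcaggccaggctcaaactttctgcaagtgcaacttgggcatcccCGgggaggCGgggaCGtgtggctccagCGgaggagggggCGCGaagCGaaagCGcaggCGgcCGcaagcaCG
ZIC1: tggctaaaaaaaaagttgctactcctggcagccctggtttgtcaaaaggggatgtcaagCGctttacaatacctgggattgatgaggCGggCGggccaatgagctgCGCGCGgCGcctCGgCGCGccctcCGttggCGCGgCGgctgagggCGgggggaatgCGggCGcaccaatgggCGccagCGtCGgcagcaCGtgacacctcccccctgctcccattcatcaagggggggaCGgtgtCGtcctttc
ZIC4: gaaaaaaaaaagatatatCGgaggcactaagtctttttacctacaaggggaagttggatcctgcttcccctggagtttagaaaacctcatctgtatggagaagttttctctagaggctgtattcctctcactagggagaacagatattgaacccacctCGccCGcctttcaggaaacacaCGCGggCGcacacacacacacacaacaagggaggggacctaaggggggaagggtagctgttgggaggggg

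The windows hold 31 CpG dinucleotides for ZIC2, 28 for ZIC5, 23 for ZIC1 and 6 for ZIC4. Of all genes, 15.3%, 22.4%, 36.4% and 78.4% have as many in the 250 bases before the canonical start. The ZIC5 and ZIC4 windows lie before other starts, so their shares compare unlike windows. Before their canonical starts the counts are 21 for ZIC5, fewer than for ZIC1, and 9 for ZIC4. Within 1500 bp of the canonical start the counts were 354 for ZIC2, 232 for ZIC5, 211 for ZIC1 and 94 for ZIC4, beside a median of 115 over all genes. Only 0.12% of genes reached the ZIC2 count, whereas 63.5% reached that of ZIC4. Peaks covered the printed windows unequally. All 250 bases of the ZIC2 window lay inside a peak in each of the 4 reChIP libraries. The ZIC5 window was covered in full by replicate 1 of K4-K119 and of K119-K4, and in replicate 2 of both orders the peak ended short of it. No library had a peak over the ZIC1 or the ZIC4 window, and IgG-IgG covered none of the 4.

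The pair ZIC2-ZIC5 was recovered with both orders of the antibodies in all 4 libraries, and the pair ZIC1-ZIC4 gave no reciprocal region, a stretch kept in both replicates of both orders. Reads in promoter peaks of ZIC2 numbered 507 and 293 with K4-K119 and 413 and 169 with K119-K4. Those of ZIC5 numbered 348 and 179 with K4-K119 and 349 and 83 with K119-K4. Both genes were covered in every reChIP library, with fewer reads in replicate 2 of each order. ZIC1 had 186 and 6 reads with K4-K119 and 82 and 78 with K119-K4. ZIC4 had 185 and 4 reads with K4-K119 and 5 and 4 with K119-K4. ZIC1 was thus low in 1 library and ZIC4 was high in 1 library, K4-K119 replicate 1 being high for both. Neither IgG-IgG library listed a peak at a promoter of any of the 4 genes.

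**Figure D1:**
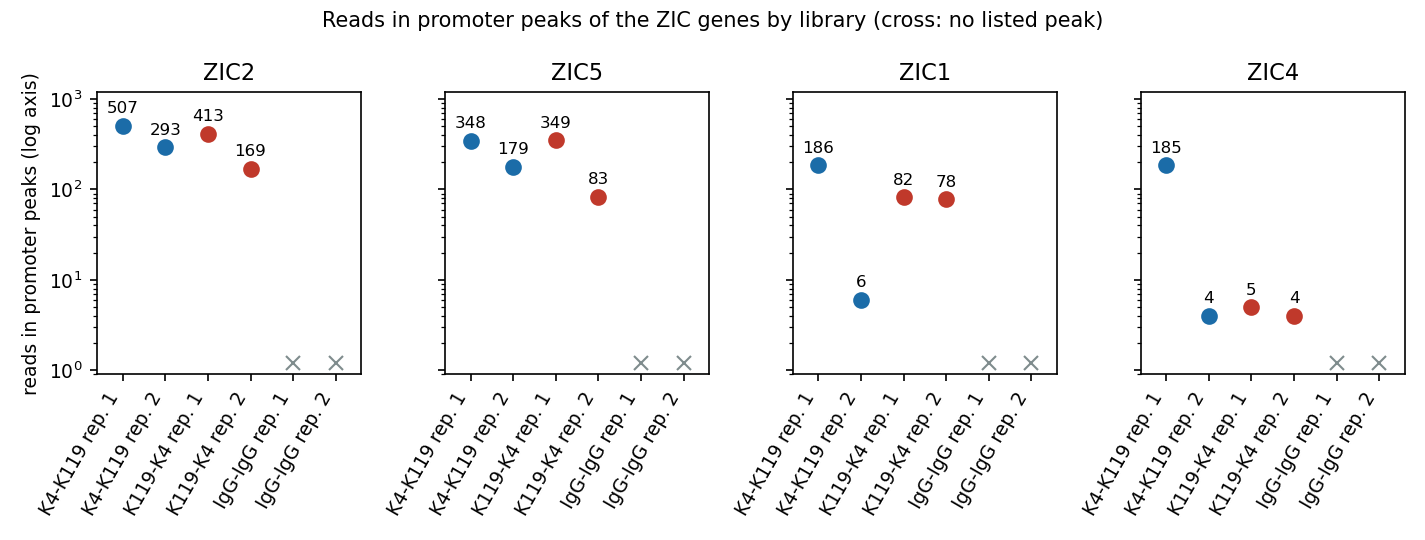
Reads in promoter peaks (log axis) of ZIC2, ZIC5, ZIC1 and ZIC4, a panel for each gene, in the 2 replicates each of K4-K119 (blue), K119-K4 (red) and IgG-IgG (grey crosses, no listed peak). ZIC2 and ZIC5 have between 83 and 507 reads in the reChIP libraries, ZIC1 has 6 in K4-K119 replicate 2, and ZIC4 exceeds 5 reads in K4-K119 replicate 1 alone.

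These counts differ in weight from library to library. Peaks with a log2 fold over input above 1 and an FDR below 0.05, called kept peaks here, held 1977663 and 749681 reads for K4-K119, 1469517 and 805233 for K119-K4, and 58980 and 65433 for IgG-IgG. The lists contain no reads outside peaks, so sequencing depth is unknown, and between 65.9% and 96.1% of the listed peaks of a library hold only 2 reads. A kept peak at a promoter was common: 78.2% and 52.3% of genes had 1 in the K4-K119 replicates, 64.1% and 61.4% in the K119-K4 replicates, and 10.3% and 10.7% in the IgG-IgG replicates. All 4 ZIC genes had a kept peak in each reChIP library and none had 1 in IgG-IgG, so presence of a peak did not separate the members. The number of reads was higher at ZIC2 and ZIC5 in each reChIP library, but in K119-K4 replicate 2 ZIC5 (83) and ZIC1 (78) hardly differed. At least as many reads as ZIC2 were found at 1.61% and 0.984% of genes with K4-K119 and at 2.89% and 2.98% with K119-K4. For ZIC5 these shares were 4.27%, 3.84%, 4.17% and 10.4%. For ZIC1 they were 15.7%, 44.5%, 27.9% and 11.3%, and for ZIC4 15.9%, 48.1%, 52.6% and 48.3%, so that ZIC4 lay near the middle of all genes in 3 libraries. The promoter windows of a gene together spanned 6711 bp for ZIC2, 3001 bp for ZIC5, 12477 bp for ZIC1 and 16511 bp for ZIC4. A peak touching a window was counted whole, so these shares also depend on the number of starts and on peak width.

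Per 1000000 reads in kept peaks, the 4 reChIP libraries averaged 285 ± 76.8 (SD, n = 4) for ZIC2, 189 ± 64.2 for ZIC5, 63.7 ± 41.6 for ZIC1 and 26.8 ± 44.5 for ZIC4, and IgG-IgG had no listed reads. The exact two-sided permutation test of 4 against 2 libraries gave p = 0.133 for each gene, which is the smallest p this design allows. It therefore cannot reach 0.05 for any gene. A missing IgG-IgG peak was counted as no reads. Every gene with listed reads in all 4 reChIP libraries and none in IgG-IgG therefore gives this same p, whatever its level. The averages count listed peaks of any fold: in kept peaks alone ZIC1 had 4 and 8 reads with K119-K4 in place of 82 and 78, and the other three genes were unchanged. The libraries also differ in how much was called, so these values compare what was listed.

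Levels of different genes were compared per kilobase of peak around the canonical start. ZIC2 had 75.7 and 44.4 reads per kb with K4-K119 and 86.0 and 39.8 with K119-K4. ZIC5 had 69.6 and 49.7 reads per kb with K4-K119 and 83.1 and 31.9 with K119-K4. ZIC1 had 24.8 and 20.0 reads per kb with K4-K119 and 36.4 and 33.3 with K119-K4. ZIC4 had a value in K4-K119 replicate 1 alone, 14.2 reads per kb. ZIC2 exceeded ZIC1 in 4 of 4 libraries, by 3.05-, 2.22-, 2.37- and 1.19-fold, with a mean log2 ratio of 1.06 ± 0.57 (SD, n = 4; exact sign-flip permutation p = 0.125, the smallest possible, adjusted p = 0.375 over 3 comparisons). The ZIC1 value in K4-K119 replicate 2 rests on 4 reads over 200 bp. ZIC5 exceeded ZIC1 in 3 of 4 libraries (mean log2 ratio 0.98 ± 0.71; exact sign-flip permutation p = 0.25, adjusted p = 0.375). The neighbours ZIC2 and ZIC5 did not differ beyond their spread, with a mean log2 ratio of 0.08 ± 0.2 and ZIC2 the higher in 3 of 4 libraries (exact sign-flip permutation p = 0.5, adjusted p = 0.5). By mean log2 ratio ZIC2 and ZIC5 lay above ZIC1, although ZIC5 was below ZIC1 in K119-K4 replicate 2. ZIC4, with a value in 1 library, was not compared. A listed peak of 2 reads over 100 bp also has 20.0 reads per kb, so this measure separates small peaks poorly. The 4 libraries are too few for any of these comparisons to pass 0.05, so no ranking is drawn.

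To ask which stretches were recovered whichever antibody came first, kept peaks of the replicates of an order were merged where they overlapped by more than 25% of both. Merged peaks of both orders that overlapped by the same rule gave 4020 reciprocal regions, with a median width of 2100 bp. A reciprocal region overlapped a promoter of 2 of the 4 ZIC genes, ZIC2 and ZIC5, beside 20.9% of all genes (4180 of 20015). Without K4-K119 replicate 1, ZIC2 and ZIC5 again had a region, beside 21.0% of all genes. With a log2 fold above 2 neither gene had 1, beside 6.27% of all genes. A merged K4-K119 peak was present at 3 of the 4 genes, ZIC2, ZIC4 and ZIC5, beside 33.0% of all genes. A merged K119-K4 peak was present at ZIC2 and ZIC5, beside 30.0% of all genes. With only 4 members these counts say little about the family, but both genes with a region belong to the chromosome 13 pair.

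The ZIC2 region, chr13:99979101-99985900, is 6800 bp wide, and 0.672% of the reciprocal regions are as wide. It includes the first exon of ENSG00000288060, a minus-strand long noncoding RNA gene upstream, contains exons 1 and 2 of ZIC2-201 and ends inside exon 3. The counting is not stated to use strand, and a ChIP read has no transcript of origin, so the region cannot be divided between ZIC2 and its noncoding neighbour. It held 507 and 293 reads with K4-K119, 413 and 169 with K119-K4 and none in IgG-IgG. Between 2.96% and 10.8% of the regions held as many reads in the 4 reChIP libraries, but such sums also depend on width. The medians of all regions, at a median width of 2100 bp, were 148 and 76 reads with K4-K119 and 145 and 58 with K119-K4. Per kb the ZIC2 region held 74.6 and 43.1 reads with K4-K119 and 60.7 and 24.9 with K119-K4. Reads per kb were not ranked over all regions.

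The ZIC5 region, chr13:99967601-99972600, is 5000 bp wide, and 2.59% of regions are as wide. It covers exon 1 of ZIC5-201 in full, reaches into the intron behind it and stops before exon 2. It held 348 and 179 reads with K4-K119 and 351 and 109 with K119-K4, where 9.95% to 24.7% of regions held as many. Its width enters these sums too, and per kb the region held 69.6 and 35.8 reads with K4-K119 and 70.2 and 21.8 with K119-K4. IgG-IgG replicate 1 had 1 peak of 2 reads inside it, at 99968401-99968500, which lies in the gene body beyond the promoter window. When every kept peak overlapping an IgG-IgG peak was removed, ZIC5 lost its region and ZIC2 retained its own.

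Between the regions lie 6500 bp in which 3 of the reChIP libraries had no peak and K119-K4 replicate 2 had 2 peaks of 2 reads each. The pair therefore held separate regions rather than a continuous domain in these lists. The largest peaks of the 4 libraries shared 2900 bp at ZIC2, 99981201-99984100, and 2500 bp at ZIC5, 99969101-99971600. Both shared stretches lie on the gene side of the start for most of their length, over exon 1 of each gene. The limits of the ZIC2 stretch are those of the peak in K119-K4 replicate 2. In the other reChIP libraries the ZIC2 peak began further upstream, between 99979101 and 99979501. The ZIC5 stretch is bounded by the peaks of replicate 2 of both orders. The regions hold 587 CpG dinucleotides at ZIC2 and 446 at ZIC5, and their GC content is 63.6% and 65.3%. These values were not compared with those of the other reciprocal regions.

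**Figure D2:**
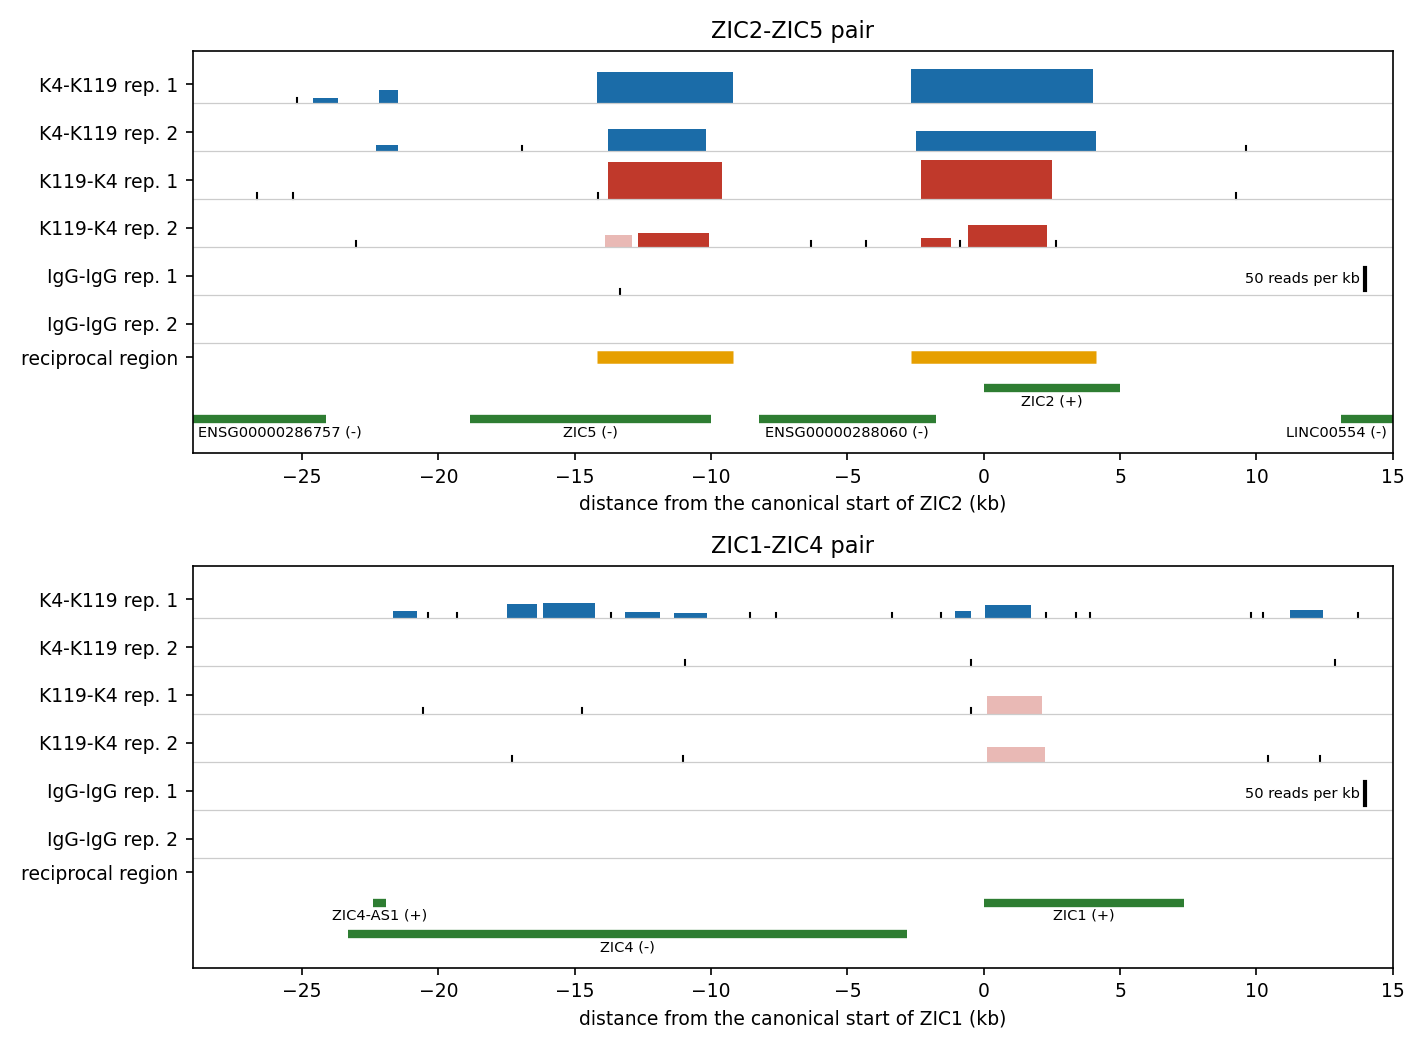
Listed peaks around the ZIC2-ZIC5 pair (upper panel) and the ZIC1-ZIC4 pair (lower panel) by distance from the start of ZIC2 or ZIC1 in kb, with a row for each library, bars of 10 or more reads drawn to a height in reads per kb and black ticks for smaller peaks. Pale bars have a log2 fold of 1 or less, orange bars are reciprocal regions, and green bars are genes (the canonical transcript for ZIC genes). ZIC2 and ZIC5 have tall bars in all 4 reChIP rows, and ZIC1 has pale bars in both K119-K4 rows.

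In K119-K4 replicate 2, the library with the fewest reads at both genes, the peaks were broken up. The ZIC2 stretch was split into peaks of 141 reads at 99981201-99984100 and 23 reads at 99979501-99980600, with 2 smaller ones. The ZIC5 stretch was split into a peak of 83 reads at 99969101-99971700 and another of 26 reads at 99967901-99968900 that did not reach the fold threshold. In the other 3 libraries each promoter was overlapped by 1 peak, from 4800 to 6700 bp wide at ZIC2 and from 3600 to 5000 bp wide at ZIC5. The ZIC5 peak did not reach the canonical start at 99971767 in replicate 2 of either order. It ended inside the gene, at 99971600 with K4-K119 and at 99971700 with K119-K4.

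The ZIC1-ZIC4 pair was covered differently. The only peak of 10 or more reads found with both orders lies just inside ZIC1, over exon 1 of ZIC1-201. It spanned 147409401-147411100 with 49 reads in K4-K119 replicate 1, 147409501-147411500 with 78 reads in K119-K4 replicate 1 and 147409501-147411600 with 70 reads in K119-K4 replicate 2. K4-K119 replicate 2 had 4 reads at 147408801-147409000 instead, on the other side of the start. The 3 larger peaks have 162 to 178 CpG dinucleotides, between 84.8 and 95.3 per kb, a density close to the 87.5 to 107 per kb of the main ZIC2 and ZIC5 peaks.

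Whether the ZIC1 peak was kept depended on the library. It had 7 input reads in K4-K119 replicate 1, which is 7.0 reads per input read, and a log2 fold of 4.41. In K119-K4 it had 10 input reads in each replicate, 7.8 and 7.0 reads per input read, and log2 folds of 0.72 and 0.95. The same or a higher ratio of reads to input thus passed in K4-K119 replicate 1 and missed the threshold in both K119-K4 libraries. The deposited folds imply that 1 input read was set equal to 0.328 reads in K4-K119 replicate 1, against 3.95 in its replicate 2 and 4.74 and 3.62 in those of K119-K4. A log2 fold of 1 therefore took 0.657, 7.9, 9.48 and 7.24 reads per input read. The corresponding ratios at the canonical start were 22.0, 12.7, 37.5 and 16.7 at ZIC2 and 18.3, 16.3, 20.5 and 10.4 at ZIC5, above that limit in all 4 libraries.

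**Figure D3:**
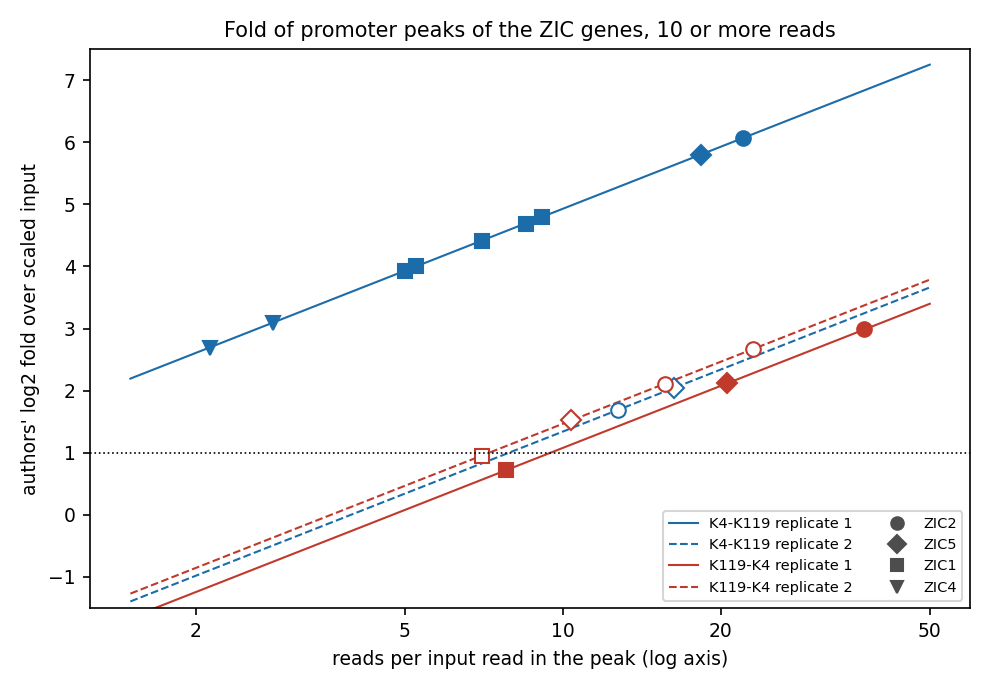
Deposited log2 fold over scaled input against reads per input read (log axis) for promoter peaks of 10 or more reads with input reads, with a line for the input scale of each reChIP library and a dotted line at a log2 fold of 1. Circles are ZIC2, diamonds ZIC5, squares ZIC1 (peaks shared with ZIC4 included) and triangles ZIC4, filled for replicate 1 and open for replicate 2. The red ZIC1 squares, at 7.8 and 7.0 reads per input read, lie under the dotted line, and the blue ZIC1 square at 7.0 lies at 4.41.

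Removing the fold threshold did not give ZIC1 a reciprocal region, and neither did the use of 1 input scale (3.79, the median of the reChIP libraries) for all 4 reChIP libraries, an alternative chosen after seeing the data. With no fold threshold and without K4-K119 replicate 2, also chosen after seeing the data, ZIC1 gained a region, and 34.4% of all genes then had 1.

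ZIC4 had reads mainly in K4-K119 replicate 1, and most of these cannot be assigned to it alone. Its windows share 3911 bp with those of ZIC1, and the shared peaks held 116 of its 185 reads in that library, against 0, 2 and 2 reads in the other reChIP libraries. The largest was a peak of 64 reads at 147393201-147395100, where alternative starts of both genes lie. At that place K119-K4 replicate 1 listed 2 reads, and replicate 2 of either order listed none. The merged K4-K119 peak of ZIC4 rested on 15 reads at 147398001-147399200 and 4 reads at 147398201-147398600, both in an intron of ZIC4-201 and both without an input read. Within 1500 bp of the canonical ZIC4 start, 3 reChIP libraries listed no peak and K4-K119 replicate 1 had 17 reads.

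To ask whether the order of the antibodies mattered at the ZIC regions, reads were compared over all 4020 regions with edgeR's quasi-likelihood test and Benjamini-Hochberg adjustment. The ZIC2 region had 672 and 726 counts per 1000000 (CPM, normalised over the regions by the TMM method of edgeR) with K4-K119 and 550 and 536 with K119-K4, so the orders did not overlap. The log2 fold of K119-K4 over K4-K119 was -0.36 ± 0.18 (SE), with an adjusted p of 0.284. The ZIC5 region had 461 and 444 CPM with K4-K119 and 468 and 346 with K119-K4, which overlap. Its log2 fold was -0.14 ± 0.21 (SE), with an adjusted p of 0.725, and it became 0.03 without K119-K4 replicate 2. No region of the 4020 passed an adjusted p of 0.05 (0%), 831 had an unadjusted p below 0.05, and DESeq2 called 32. With the replicate number as a block, edgeR called 1025 regions, ZIC2 among them (log2 fold -0.35, adjusted p = 0.0371), and not ZIC5 (-0.14, adjusted p = 0.545). The study's methods state that experiments were repeated as complete batches where they describe the doxycycline contrasts, and do not say which reChIP libraries shared a batch. A log2 difference as large as that of ZIC2 was seen at 47.4% of regions, and as large as that of ZIC5 at 78.3%.

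**Figure D4:**
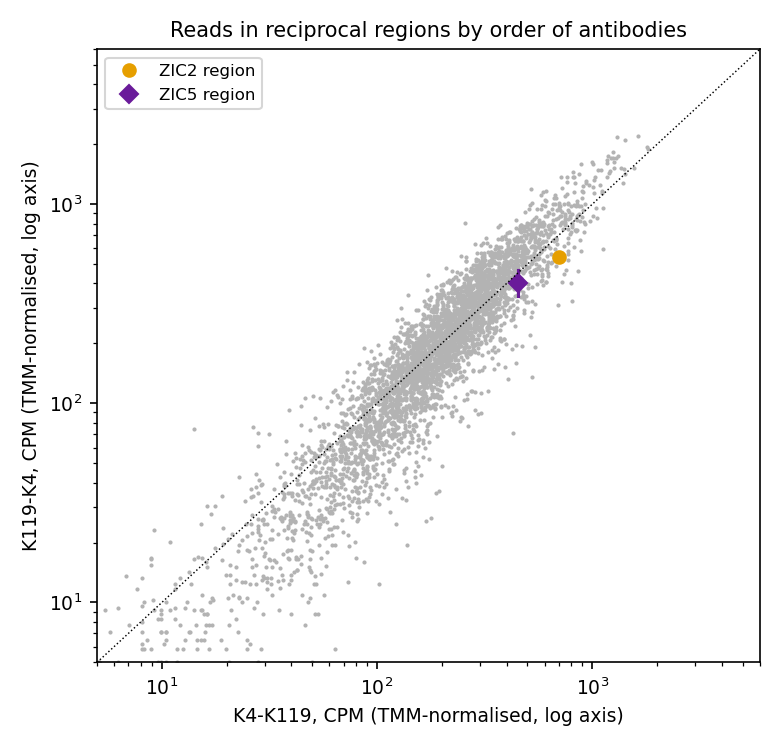
TMM-normalised CPM (log axes) for the 4020 reciprocal regions, K119-K4 against K4-K119, each the geometric mean of 2 replicates, with lines joining the replicates of the ZIC regions where longer than the symbol. ZIC2 (orange circle) and ZIC5 (purple diamond) lie below the dotted line of equal values, inside the cloud of other regions.

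The genes whose promoter reads over the 6 libraries were most like those of each member were also listed, by Euclidean distance of log2 of these reads per 1000000 reads in kept peaks, plus 1. For ZIC2 these were CCDC85C, STK32C and NBPF1 (distances 0.13 to 0.266), and for ZIC5 they were RAB11FIP4, ZEB1 and SIM2 (0.256 to 0.283). All 6 had a reciprocal region, and NBPF1 belongs to a family of near-identical copies among which reads may be split. The nearest to ZIC1 were EEF1A1, LMBRD2 and MCM4 (0.598 to 0.794), and the nearest to ZIC4 included CTNND2 and KCNK17 (0.28 and 0.542). None of these named genes had a reciprocal region. EEF1A1, which encodes a translation elongation factor, had 168 and 6 reads with K4-K119 and 85 and 52 with K119-K4, the uneven pattern of ZIC1. CTNND2, which encodes a neuronal catenin, had 152 and 4 reads with K4-K119 and 5 and 4 with K119-K4, the pattern of ZIC4.

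Related genes were described for comparison. Of the 6 GLI and GLIS genes, zinc finger relatives of the ZIC family, 3 had a reciprocal region (50.0%), GLIS1, GLI3 and GLIS2. GLI3, a transducer of Hedgehog signalling, had 377 and 182 reads with K4-K119 and 302 and 167 with K119-K4, at least as many as ZIC5 except in K119-K4 replicate 1. Of 12 holoprosencephaly genes, 6 had a region (50.0%): SIX3, DLL1, PTCH1, FGF8, CDON and TGIF1. The region at FGF8 reached its promoter without a merged K119-K4 peak there, and 5 of the 12 genes had such a peak. SIX3, a forebrain homeobox gene, had 1122 and 662 reads with K4-K119 and 829 and 590 with K119-K4, more than ZIC2 in every library. PTCH1, the Hedgehog receptor, had 607 and 348 reads with K4-K119 and 744 and 284 with K119-K4. The GLI and holoprosencephaly lists share GLI2. Of 11 neural plate border and neural crest genes, 2 had a region (18.2%), GBX2 and MSX1, a share near the 20.9% of all genes. The median of reads in promoter peaks in K4-K119 replicate 1 was 262 for the GLI and GLIS genes, 270 for the holoprosencephaly genes and 74.0 for the neural plate border and crest genes, beside 59.0 for all genes. In K4-K119 replicate 2 the medians were 108, 88.5 and 7.0, beside 3.0 for all genes. In K119-K4 they were 148, 140 and 4.0 in replicate 1, beside 6.0 for all genes, and 51.5, 34.5 and 6.0 in replicate 2, beside 3.0. The GLI and holoprosencephaly lists were above all genes in 4 of 4 reChIP libraries, and the neural plate border list was below all genes in K119-K4 replicate 1. In IgG-IgG the medians were 1.0 and 1.0 for the GLI and GLIS genes, beside 0.0 for the other lists and for all genes. GLIS1, GLI3 and GLIS2 each had 2 reads in at least 1 IgG-IgG library, where 10.3% and 10.7% of genes had a listed peak. The excess of the GLI list was therefore not confined to the reChIP libraries.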

How the data were processed

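Reads were, per the submitters' processing notes, trimmed with Trim Galore 0.6.6, aligned to hg38 with BWA 0.7.13 and handled with SAMtools 1.9 and Picard 2.6.0. The authors called peaks in each library against genomic input by EPIC2, using 100 bp bins. The deposited counts of reads and input reads per peak are unscaled. The deposited p-value and FDR test reads against input within a library, the deposited log2 fold compares reads with scaled input, and the deposited score derives from that fold. Where a peak had no input read its fold was not interpreted.

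Kept peaks, merging and reciprocal regions followed the study's methods, without the blacklist, which was not used here; the methods do not say which peak the 25% refers to. Annotation was GENCODE v44, without 18 pseudoautosomal copies on Y. Listed peaks of any fold entered promoter reads and region sums. Such sums move with the extent of calling. Tests used edgeR 4.0.16, DESeq2 1.42.0 (R 4.3.3) and scipy 1.17.1, after trial on simulated data. Replicates were not pooled before testing. Alternatives covered fold, FDR, overlap, window, input scale, library size, the replicate block and single libraries left out.

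Named genes were the 4 members, genes overlapping or within 10 kb of the pairs, the 3 genes most like each member, and members of 3 lists with a reciprocal region. An item that the rule names is not reported here. The members and lists were chosen with earlier results of these data known.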

Additional observations from a re-analysis of the deposited data

How the results depend on the processing

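ZIC2 and ZIC5 alone had a reciprocal region under each setting tried except 3. With a log2 fold above 2 the count was 0, where 6.27% of all genes had a region. With peaks overlapping an IgG-IgG peak removed it was 1 (ZIC2), and with no fold threshold and without K4-K119 replicate 2 it was 3 (with ZIC1). Leaving out any of the 4 reChIP libraries alone gave 2.

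The regions called by the test of antibody order numbered 32 with DESeq2, 8 with kept reads as library size and 1025 with the replicate block, against 0. Leaving out a library gave 0 to 103 (12 without K4-K119 replicate 1, 103 without K4-K119 replicate 2, 81 without K119-K4 replicate 1 and 0 without K119-K4 replicate 2). The cause was not tested. With the replicate block the ZIC2 log2 fold was -0.35 (edgeR adjusted p = 0.0371) and that of ZIC5 -0.14 (adjusted p = 0.545). The labels do not say that replicate numbers mark shared batches, and differences between replicates correlated across the 4020 regions (r = 0.39). Over the libraries left out, the ZIC2 fold ranged from -0.42 to -0.31, and that of ZIC5 from -0.4 to 0.03, positive without K119-K4 replicate 2. The other settings left the ZIC2 and ZIC5 folds below 0 and short of an adjusted p of 0.05. Peak lists give neither depth nor reads outside peaks, so a gene without a peak is not shown to lack reads.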
